A study of Mus musculus with 32 samples.

Results

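The 8 genes described here encode receptors, a junction protein, a surface mucin, a secreted factor and a transcription factor best known from blood vessel endothelium: Tek, Tie1, Kdr, Flt1, Cdh5, Emcn, Egfl7 and Sox18. They were taken by gene symbol from the annotation of both Affymetrix chip types, which gave 15 probe sets, 14 on chip type A and 1 on chip type B, of 45037 in all, and 8 genes of 18193. Probe sets were matched by symbol without use of their signal, but the genes were chosen with earlier results of these data known. The study profiled mouse bone marrow cells, with 16 RNA samples on 32 arrays, 1 array of each chip type per sample.

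Stem-enriched cells (3 samples) were sorted cells that the labels describe as rich in stem and progenitor activity and the instrument records name Lin-Sca1+cKit+. Lin-Sca-1-cKit+ cells (3 samples) were sorted as later progenitors, and Lin-Sca-1-cKit- cells (3 samples) as cells that the submitters place nearer the lymphoid lineage. Lin-Sca-1+cKit- cells were sorted once, so they gave 1 sample and no test. Lineage-depleted marrow (3 samples) had gone through an enrichment kit that removes mature cells, and total marrow (3 samples) was neither sorted nor depleted. The sorted populations were estimated by cytometry to be over 90% pure. The labels give no strain, age, genotype or treatment, and they do not say that the samples of a population came from different animals. The spread behind each p-value is that between samples and may be technical. All values come from RNA of whole populations, so fewer cells that express a gene and less RNA per cell cannot be told apart.

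Tek (also called Tie2) and Tie1 are related receptor tyrosine kinases, and angiopoietin-1 is the activating ligand of Tek. Kdr (VEGFR2) is the main signalling receptor for VEGF, Flt1 (VEGFR1) binds the same ligand and also exists in a soluble form, and Cdh5 (VE-cadherin) holds endothelial cells together at adherens junctions. Emcn (endomucin) is a surface sialomucin, Egfl7 is a secreted matrix protein, and Sox18 is a transcription factor of developing vessels. Several of these genes are not confined to vessels: Tek is known as a receptor of quiescent hematopoietic stem cells in the marrow niche, and endomucin and Egfl7 have been described on or in immature blood cells.

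Sequence upstream of 3 of the genes is shown because Egfl7 carried the largest population differences below, Emcn was highest in the 3 stem-enriched samples and Tie1 was the member with signal above the detection floor in stem-enriched samples alone. The sequences are from RefSeq promoter windows on GRCm38.p6 (250 bases before an annotated transcript start, kept only where they lie outside the gene itself). Capitals mark any of 5 short motifs, searched on both strands. GGAAGT is the motif of ETS factors, while AGATAA is that of the GATA family. AACAAT is typical of SOX factors, whereas TGTTTA is typical of forkhead factors. The fifth, CACCTG, is an E box. The table held windows for Tek, Tie1, Kdr, Flt1, Emcn (1 each) and Egfl7 (3).
Egfl7, chr2:26580833-26581082, plus strand: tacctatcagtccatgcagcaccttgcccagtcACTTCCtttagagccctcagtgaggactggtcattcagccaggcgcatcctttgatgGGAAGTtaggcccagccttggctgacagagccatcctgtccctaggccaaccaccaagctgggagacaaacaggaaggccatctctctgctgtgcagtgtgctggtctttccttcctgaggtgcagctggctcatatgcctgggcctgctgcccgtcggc
Emcn, chr3:137340828-137341061, plus strand: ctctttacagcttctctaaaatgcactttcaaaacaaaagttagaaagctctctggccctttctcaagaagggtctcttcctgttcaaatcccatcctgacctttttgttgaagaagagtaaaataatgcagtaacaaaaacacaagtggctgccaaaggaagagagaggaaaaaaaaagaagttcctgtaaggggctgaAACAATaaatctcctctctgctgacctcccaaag
Tie1, chr4:118489850-118490099, minus strand: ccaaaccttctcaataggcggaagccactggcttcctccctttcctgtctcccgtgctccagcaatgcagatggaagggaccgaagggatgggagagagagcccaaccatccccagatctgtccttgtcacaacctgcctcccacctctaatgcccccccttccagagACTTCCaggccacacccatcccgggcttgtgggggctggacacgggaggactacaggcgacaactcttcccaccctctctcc
The Egfl7 window held GGAAGT once on each strand (ACTTCC is its reverse complement), the Tie1 window held it once, and the Emcn window held AACAAT once. The windows not printed lie before an annotated transcript start but wholly or mostly within the span of the gene itself. There GGAAGT was found in the windows of Kdr, Flt1 and the second Egfl7 start. AACAAT was found in that of Tek, and CACCTG in that of the third Egfl7 start. All of these matches fall inside the annotated gene. Of 32851 mouse promoter windows of the same length, 19.7% hold GGAAGT, 9.42% AACAAT, 17.2% CACCTG, 9.99% AGATAA and 12% TGTTTA, so each match is common and is a description only. Within the annotated span of Egfl7 lies the gene of a microRNA known for its role in endothelial and blood stem cells, mmu-miR-126a-3p (chr2:26591402-26591423, plus strand), shown here with its seed, bases 2 to 8, in capitals: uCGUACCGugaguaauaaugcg. The arrays do not measure the mature microRNA.

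Signals are the deposited MAS5 values, linear and scaled by array. Values under a floor, 162.3 for chip type A and 268.1 for chip type B (each the 25th percentile), were raised to it. Testing required signal above the chip type's median, 535.3 for A and 843.8 for B, on 3 or more arrays. Of the 15 probe sets, 9 passed, for Tek, Kdr, Emcn, Flt1 (2) and Egfl7 (4). The 6 that did not pass were Tie1, both of Cdh5, Sox18 and the other 2 of Flt1. Tek passed on exactly 3 arrays (2 stem-enriched and 1 Lin-Sca-1-cKit+) and Emcn on exactly 3 (all stem-enriched), so a difference in those genes was partly required by the filter. The same holds for Flt1 1451756_at, which passed on 4 arrays, all 3 of Lin-Sca-1-cKit+ cells and 1 of stem-enriched cells. The second Lin-Sca-1-cKit+ sample stood apart from the rest before any comparison. Its correlation with the other samples over all tested probe sets was 0.571 to 0.690, where other pairs lay between 0.740 and 0.934. Its median signal on chip type A was 877.4, against 451.4 to 578.9 in the others. Its log2 ratio of 3 prime to 5 prime Gapdh control signal was 0.38, against 2.68 to 4.17. It was the highest sample for 7 of the 15 member probe sets, so results that rest on it are given with and without it. Fits of Lin-Sca-1-cKit+ cells on the shared scan day or within 1 chip lot are given only with it. Among the replicated populations, Lin-Sca-1-cKit+ and Lin-Sca-1-cKit- cells alone shared a scan day (on chip type A without the first Lin-Sca-1-cKit+ sample). For the others, population and day of scanning cannot be told apart.

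**Figure D1:**
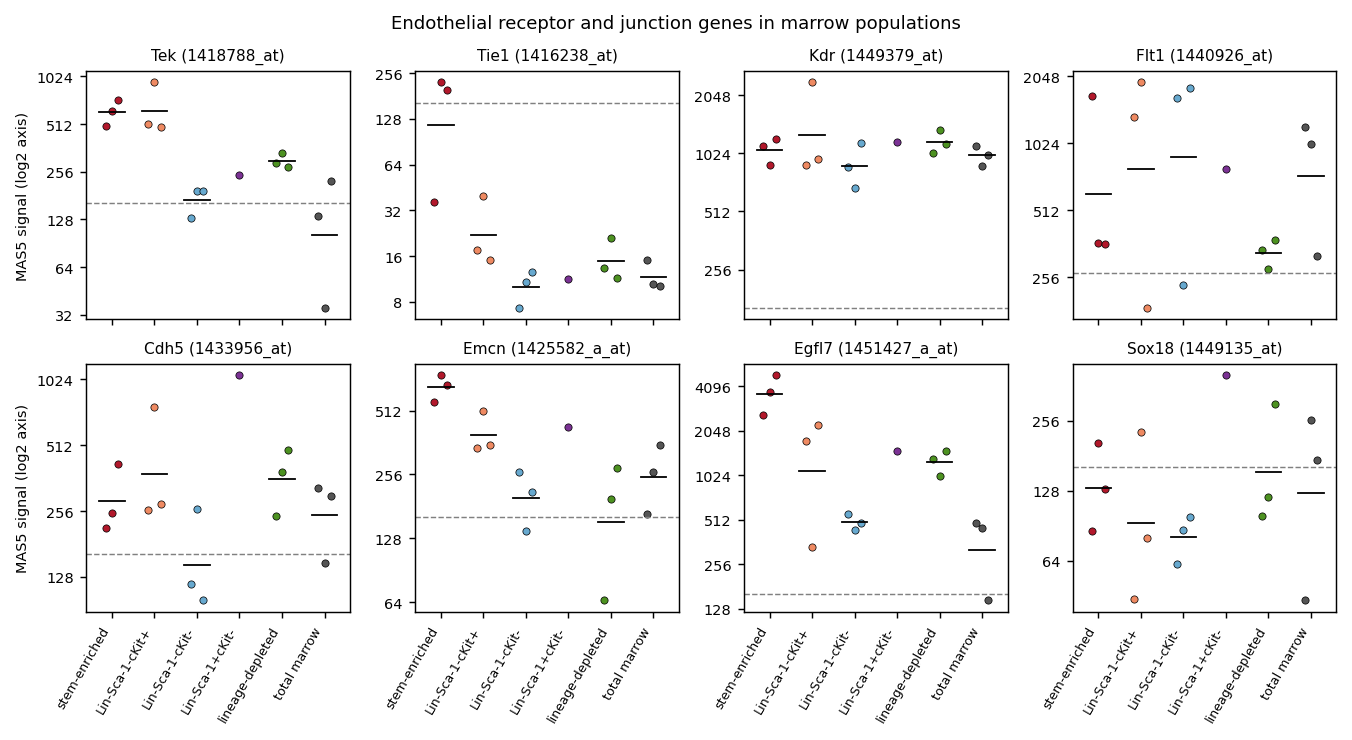
MAS5 signal on a log2 axis for the main probe set of each gene, 1 point per sample, with the geometric mean of 3 samples as a bar and the floor as a dashed line. Stem-enriched samples are the highest for Emcn and Egfl7, Kdr is level across populations, and the single Lin-Sca-1+cKit- sample is the highest for Cdh5 (1070) and Sox18 (403).

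Tek signal was high in both cKit-positive sorted populations and low in the rest. Stem-enriched samples had 496, 623 and 725, and Lin-Sca-1-cKit+ samples had 509, 939 and 492. Lin-Sca-1-cKit- samples had 131, 193 and 194, the Lin-Sca-1+cKit- sample 245, lineage-depleted samples 289, 336 and 274, and total marrow samples 134, 35.4 and 222. All 6 samples of stem-enriched and Lin-Sca-1-cKit+ cells lay above all 10 others, and the 2 populations overlapped each other. On the log2 scale the signal averaged 9.25 ± 0.28 (SD, n = 3) in stem-enriched cells, 9.27 ± 0.52 in Lin-Sca-1-cKit+ cells, 7.51 ± 0.15 in Lin-Sca-1-cKit- cells and 7.49 ± 0.26 in total marrow.

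In limma's moderated test, Tek was higher in stem-enriched cells than in Lin-Sca-1-cKit- cells by 1.73 ± 0.39 on the log2 scale (SE, adjusted p = 0.0095) and than in total marrow by 1.75 ± 0.39 (adjusted p = 0.00581). It was higher in Lin-Sca-1-cKit+ cells than in Lin-Sca-1-cKit- cells by 1.76 ± 0.39 (adjusted p = 0.0072) and than in total marrow by 1.78 ± 0.39 (adjusted p = 0.00471). These are 3.32- to 3.43-fold differences. Against lineage-depleted marrow neither population passed the test, with differences of 1.02 and 1.05. Stem-enriched and Lin-Sca-1-cKit+ cells differed by -0.02 (95% interval -0.85 to 0.80). Without the second Lin-Sca-1-cKit+ sample the Lin-Sca-1-cKit+ differences were 1.45 (adjusted p = 0.0186) against Lin-Sca-1-cKit- cells and 1.47 (0.0132) against total marrow. The filter was not redone in this fit. Tek would not have passed it without that sample, which supplied 1 of its 3 arrays above the median. With that sample kept, the difference from Lin-Sca-1-cKit- cells was 1.90 (0.0112) on the shared scan day. Within 1 chip lot, with 2 samples a population, it was 1.81 (0.0889). Both fits held 2 Lin-Sca-1-cKit+ samples, 1 of them the sample that stood apart (Tek signal 939, against 492 in the other). Without it 1 sample would remain, so these values do not separate scan day or chip lot from that sample. Without the third stem-enriched sample the stem-enriched difference from Lin-Sca-1-cKit- cells was 1.61 and the adjusted p 0.051, and within 1 chip lot they were 1.65 and 0.101. With chip lot as a block the difference from total marrow was 1.33 (adjusted p = 0.245) in stem-enriched cells. Stem-enriched and total marrow samples shared no lot on chip type A.

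Tie1, the partner receptor of Tek, was below the floor on 14 of 16 arrays. The 2 exceptions were stem-enriched samples, which had 36.1, 223 and 199. Signal was 17.6, 39.6 and 15.2 in Lin-Sca-1-cKit+ cells, 7.32, 10.8 and 12.6 in Lin-Sca-1-cKit- cells, 11.3 in the Lin-Sca-1+cKit- sample, 13.3, 21.0 and 11.5 in lineage-depleted marrow and 15.1, 10.5 and 10.1 in total marrow. The first stem-enriched sample (36.1) and all samples of the other populations were under the floor, where signals have no order. Tie1 did not pass the filter and was not tested. With neither floor nor filter, an alternative added after the data had been seen, its adjusted p was 0.0073 against Lin-Sca-1-cKit- cells and 0.00763 against total marrow. With the floor kept and the filter dropped it was 0.123 and 0.0911, so the call depends on signals below the floor.

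Emcn was highest in stem-enriched cells. The samples had 561, 752 and 673 in stem-enriched cells, 341, 509 and 353 in Lin-Sca-1-cKit+ cells and 264, 139 and 211 in Lin-Sca-1-cKit- cells. The Lin-Sca-1+cKit- sample had 428, lineage-depleted samples had 65.4, 197 and 274, and total marrow samples had 166, 262 and 354. The 3 stem-enriched samples lay above all 13 others. The log2 mean was 9.36 ± 0.21 (SD, n = 3) in stem-enriched cells, 8.62 ± 0.32 in Lin-Sca-1-cKit+ cells, 7.70 ± 0.35 in Lin-Sca-1-cKit- cells, 7.69 ± 0.38 in lineage-depleted marrow and 7.96 ± 0.55 in total marrow, and the last 3 lay within each other's spread.

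Emcn was 3.15-fold higher in stem-enriched cells than in Lin-Sca-1-cKit- cells (log2 difference 1.66 ± 0.42 SE, adjusted p = 0.0219). It was 3.19-fold higher than in lineage-depleted marrow (1.67 ± 0.42, adjusted p = 0.0483) and 2.64-fold higher than in total marrow (1.40 ± 0.42, adjusted p = 0.0356). Against Lin-Sca-1-cKit+ cells the difference was 0.74 ± 0.42 (adjusted p = 0.42). These calls sat near the threshold. When each of 15 samples was left out in turn, the call held in 12 fits against Lin-Sca-1-cKit- cells, in 10 against total marrow and in 3 against lineage-depleted marrow. The first was lost without the second stem-enriched, the third stem-enriched or the second Lin-Sca-1-cKit- sample, and the second without any 1 stem-enriched sample or the first or second total marrow sample. The third was kept only without the first or second Lin-Sca-1-cKit+ or the first total marrow sample. All differences stayed above 1.1. The filter was not redone in these fits, and Emcn passed it on the 3 stem-enriched arrays alone. The fit without the first stem-enriched sample, 1 of the 12, would therefore not have tested it. With chip lot as a block the adjusted p was 0.0496, 0.217 and 0.315 in the same order, and with scan day as a random block it was 0.0768, 0.113 and 0.181.

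Egfl7 was higher in stem-enriched cells than in total marrow and Lin-Sca-1-cKit- cells by 3 of its 4 probe sets, and 2 of them gave the largest differences among the tested members. The main one (1451427_a_at) had 2599, 3752 and 4873 in stem-enriched cells, 1742, 338 and 2237 in Lin-Sca-1-cKit+ cells and 564, 434 and 485 in Lin-Sca-1-cKit- cells. The Lin-Sca-1+cKit- sample had 1486, lineage-depleted samples had 1325, 1015 and 1493, and total marrow samples had 488, 451 and 146. Stem-enriched samples lay above all others, and every sample of Lin-Sca-1-cKit- cells and total marrow lay below every lineage-depleted sample. The low Lin-Sca-1-cKit+ value (338) belongs to the second sample, which was otherwise the highest for many members.

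The second probe set (1451428_x_at) had 3021, 3401 and 5085 in stem-enriched cells, 996, 630 and 1330 in Lin-Sca-1-cKit+ cells and 185, 49.3 and 111 in Lin-Sca-1-cKit- cells. It had 1394 in the Lin-Sca-1+cKit- sample, 1067, 1030 and 911 in lineage-depleted marrow and 456, 252 and 53.0 in total marrow. The third (1435823_x_at) had 2258, 3895 and 4207 in stem-enriched cells, 1654, 2428 and 1768 in Lin-Sca-1-cKit+ cells and 626, 549 and 1018 in Lin-Sca-1-cKit- cells. It had 2002 in the Lin-Sca-1+cKit- sample, 1291, 1467 and 2377 in lineage-depleted marrow and 1066, 789 and 578 in total marrow. Across 16 samples these 3 probe sets correlated with each other at r = 0.80 to 0.91. The annotation gives 1451427_a_at and 1451428_x_at the same target sequence, so they are not independent measures. The suffix x marks probe sets that may bind related transcripts.

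Against total marrow, Egfl7 was 11.0-fold higher in stem-enriched cells by 1451427_a_at (log2 difference 3.46 ± 0.55 SE, adjusted p = 0.000459). By 1451428_x_at it was 14.1-fold higher (3.82 ± 0.37, adjusted p = 3.51e-06), and by 1435823_x_at 4.24-fold (2.08 ± 0.33, adjusted p = 0.000444). Against Lin-Sca-1-cKit- cells the log2 differences were 2.88, 4.46 and 2.24 (adjusted p = 0.00299, 9.99e-07 and 0.000343). For 1451428_x_at, 2 of the 3 Lin-Sca-1-cKit- samples and 1 total marrow sample were raised to the floor, so its differences from those populations depend on the floor. These 6 calls held in all 15 fits that left out 1 sample and with chip lot as a block, where the differences from total marrow were 4.35, 3.89 and 2.04. Within 1 chip lot the differences from Lin-Sca-1-cKit- cells were 2.98 (0.0431), 4.53 (0.000496) and 2.16 (0.0178). Probe set 1451428_x_at was also higher in stem-enriched cells than in Lin-Sca-1-cKit+ cells (1.99 ± 0.37, adjusted p = 0.00819) and than in lineage-depleted marrow (1.90 ± 0.37, adjusted p = 0.00927). Without the third stem-enriched sample those were 1.77 (0.0681) and 1.68 (0.0778). Without a floor both calls were lost. The call against lineage-depleted marrow was also lost with chip lot or scan day as a block, and that against Lin-Sca-1-cKit+ cells within 1 chip lot. With the Gapdh ratio as a covariate the difference from Lin-Sca-1-cKit+ cells was 1.53 (0.145). That ratio was 3.84 to 4.17 in stem-enriched samples, above the 2.68 to 3.59 of every sample of the other populations on chip type A, and 0.38 in the second Lin-Sca-1-cKit+ sample. Its part in the differences was not tested beyond that fit.

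Between the other populations, Egfl7 1451428_x_at was higher in Lin-Sca-1-cKit+ cells than in Lin-Sca-1-cKit- cells (2.48 ± 0.37, adjusted p = 0.000287) and than in total marrow (1.83 ± 0.37, adjusted p = 0.00249). It was lower in Lin-Sca-1-cKit- cells than in lineage-depleted marrow by a log2 difference of -2.56 ± 0.37 (adjusted p = 0.00442) and higher in lineage-depleted marrow than in total marrow (1.92 ± 0.37, adjusted p = 0.00851; 1.56 and 0.0583 without the third total marrow sample). Probe set 1435823_x_at also passed between Lin-Sca-1-cKit+ and Lin-Sca-1-cKit- cells (1.45 ± 0.33, adjusted p = 0.00907) and between Lin-Sca-1-cKit+ cells and total marrow (1.29 ± 0.33, adjusted p = 0.0135). The fits on the shared scan day and within 1 chip lot held 2 Lin-Sca-1-cKit+ samples, 1 of them the sample that stood apart. They do not separate day or lot from that sample. It was the lower of the 2 for 1451428_x_at (630 against 1330) and the higher for 1435823_x_at (2428 against 1768). On the shared scan day the differences from Lin-Sca-1-cKit- cells were 2.43 (0.00133) and 1.56 (0.0128), and within 1 chip lot 2.50 (0.0165) and 1.47 (0.0921). Without the second Lin-Sca-1-cKit- sample the adjusted p of 1435823_x_at there was 0.0571, and without the third total marrow sample that against total marrow was 0.0756. The main probe set passed between Lin-Sca-1-cKit+ cells and total marrow (1.74 ± 0.55, adjusted p = 0.040), a call kept in 6 of 15 fits that left out 1 sample. Without the second Lin-Sca-1-cKit+ sample it was 2.58 (0.000242) there. In the same fit it was 2.01 (0.00254) between Lin-Sca-1-cKit+ and Lin-Sca-1-cKit- cells, a comparison that it did not pass with all samples (1.16, 0.198).

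The fourth Egfl7 probe set (1421335_a_at) disagreed with the others. It had 528, 963 and 684 in stem-enriched cells, 469, 1112 and 626 in Lin-Sca-1-cKit+ cells and 508, 466 and 553 in Lin-Sca-1-cKit- cells. It had 544 in the Lin-Sca-1+cKit- sample, 537, 358 and 199 in lineage-depleted marrow and 401, 284 and 593 in total marrow. These groups overlapped, the F test over 5 populations gave an adjusted p of 0.235, and its correlation with the other 3 was 0.11 to 0.32. The stem-enriched difference from total marrow was 0.79 with a 95% interval of -0.12 to 1.69, below the intervals of 2.29 to 4.63 and 3.04 to 4.59 of 1451427_a_at and 1451428_x_at. It overlapped the interval of 1435823_x_at, 1.38 to 2.78. The transcripts each probe set detects were not analysed here.

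**Figure D2:**
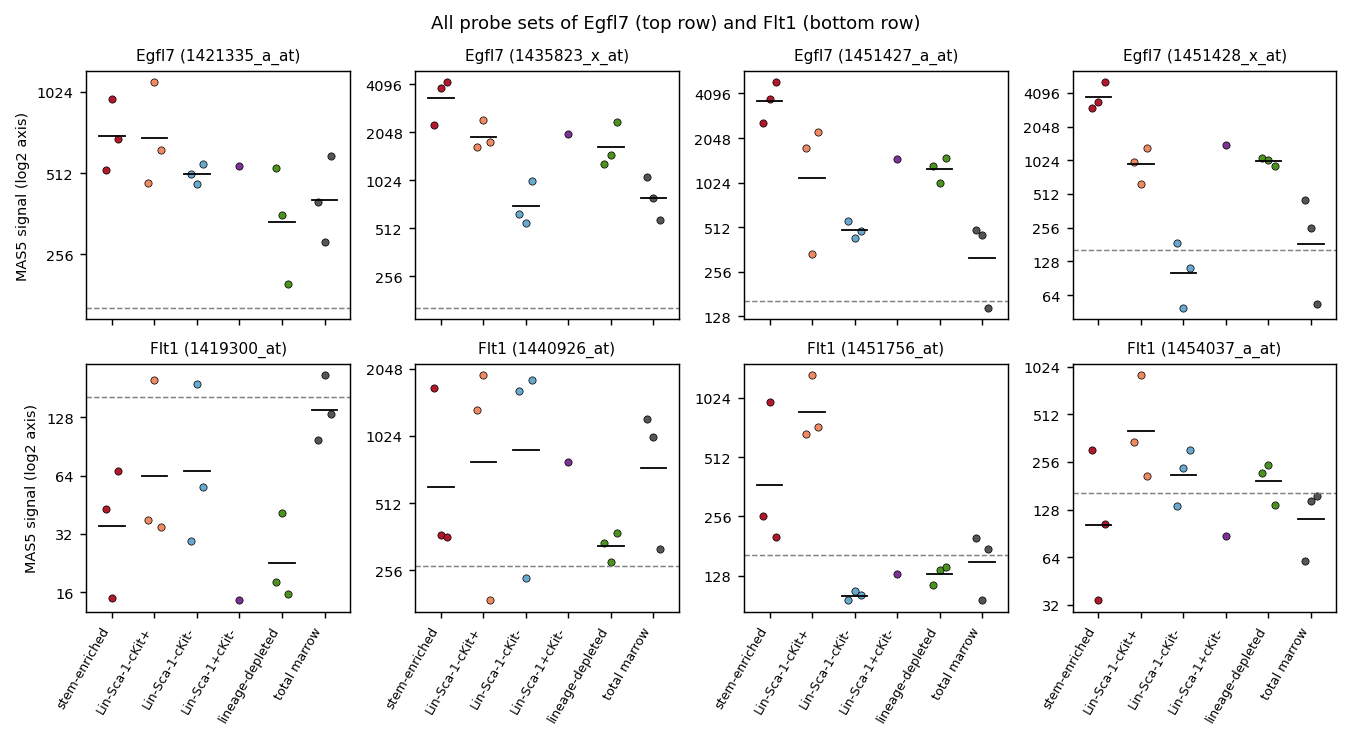
MAS5 signal on a log2 axis for the 4 probe sets of Egfl7 (top) and the 4 of Flt1 (bottom), 1 point per sample, with geometric means as bars and the floor of the chip type as a dashed line. In 3 Egfl7 panels the stem-enriched bar is the highest by a margin that 1421335_a_at does not show, and the 4 Flt1 panels differ from each other.

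Kdr was the most even of the tested members. Stem-enriched samples had 1118, 887 and 1213, Lin-Sca-1-cKit+ samples 893, 2392 and 958, and Lin-Sca-1-cKit- samples 870, 674 and 1165. The Lin-Sca-1+cKit- sample had 1172, lineage-depleted samples had 1028, 1356 and 1144, and total marrow samples had 1124, 885 and 1009. All 16 arrays were above the median signal of the chip type, and every pair of populations overlapped. The F test gave an adjusted p of 0.701. Over the 10 comparisons the 95% intervals of the log2 difference lay between -1.11 and 1.23, and for stem-enriched cells against total marrow the difference was 0.09 (-0.62 to 0.79).

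The 4 probe sets of Flt1 differed in pattern. For 1451756_at, stem-enriched samples had 257, 978 and 202, and Lin-Sca-1-cKit+ samples had 670, 1336 and 725. Lin-Sca-1-cKit- samples had 95.9, 107 and 102, the Lin-Sca-1+cKit- sample 130, lineage-depleted samples 115, 137 and 142, and total marrow samples 200, 96.4 and 175. Lin-Sca-1-cKit+ samples lay above all samples of Lin-Sca-1-cKit- cells, lineage-depleted marrow and total marrow, and all 6 samples of Lin-Sca-1-cKit- cells and lineage-depleted marrow were under the floor.

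Flt1 1451756_at was therefore at least 5.33-fold higher in Lin-Sca-1-cKit+ cells than in Lin-Sca-1-cKit- cells and lineage-depleted marrow, with all 3 samples of those populations at the floor. The log2 difference was 2.42 ± 0.54 SE in both (adjusted p = 0.0074 and 0.0328). Against total marrow it was 2.28 ± 0.54 (adjusted p = 0.00777). Without the second Lin-Sca-1-cKit+ sample, the highest, these were 2.10 (0.0219), 2.10 (0.101) and 1.97 (0.025). On the shared scan day the difference from Lin-Sca-1-cKit- cells was 2.60 (0.0122), and within 1 chip lot 2.60 (0.0985). Both fits held 2 Lin-Sca-1-cKit+ samples, this highest one (1336) and 1 other (725). They do not separate scan day or chip lot from the highest sample. The call against lineage-depleted marrow held in 7 of 15 fits that left out 1 sample. It was lost without the filter, without the floor, with chip lot or scan day as a block, and with the Gapdh ratio as a covariate. The differences of this probe set were partly required by the filter, which it passed mainly on Lin-Sca-1-cKit+ arrays. Stem-enriched cells did not pass the test against any population, with a wide spread set by the second sample (978).

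The chip type B probe set (1440926_at) had 1674, 367 and 362 in stem-enriched cells, 1343, 1923 and 187 in Lin-Sca-1-cKit+ cells and 1627, 236 and 1819 in Lin-Sca-1-cKit- cells. It had 781 in the Lin-Sca-1+cKit- sample, 338, 279 and 377 in lineage-depleted marrow and 1217, 1016 and 318 in total marrow. Samples of 1 population lay far apart, as far as 187 and 1923, and the F test gave an adjusted p of 0.58. The 2 untested probe sets ranged from 14.5 to 212 (1419300_at) and from 34.0 to 909 (1454037_a_at, highest in the second Lin-Sca-1-cKit+ sample). Correlations between the 4 Flt1 probe sets over 16 samples were 0.13 to 0.56.

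Cdh5 and Sox18 were at low signal in most samples, and neither passed the filter. Cdh5 1433956_at had 215, 252 and 419 in stem-enriched cells, 258, 766 and 276 in Lin-Sca-1-cKit+ cells, 119, 261 and 100 in Lin-Sca-1-cKit- cells, 244, 385 and 486 in lineage-depleted marrow and 327, 149 and 301 in total marrow. The Lin-Sca-1+cKit- sample had 1070. That sample was the highest of 16, by 0.48 on the log2 scale above the second Lin-Sca-1-cKit+ sample and by 1.14 above the highest of the rest. The second Cdh5 probe set (1422047_at) had 217 there, rank 6 of 16, within a range of 15.9 to 960 in the others. The 2 Cdh5 probe sets correlated at r = 0.43 over 16 samples and at 0.07 without the second Lin-Sca-1-cKit+ sample.

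Sox18 had 86.1, 206 and 130 in stem-enriched cells, 43.7, 230 and 80.5 in Lin-Sca-1-cKit+ cells and 62.1, 86.7 and 98.7 in Lin-Sca-1-cKit- cells. It had 99.6, 120 and 303 in lineage-depleted marrow and 43.2, 258 and 174 in total marrow. The Lin-Sca-1+cKit- sample had 403, again the highest of 16, by 0.41 on the log2 scale. All Lin-Sca-1-cKit- samples and 2 of the lineage-depleted samples were under the floor, where signals have no order (98.7 and 99.6 at the closest). The other pairs of the 5 populations with replicates overlapped. With the filter dropped no comparison of Cdh5 or Sox18 had an adjusted p under the threshold. By the rule of at least 1 log2 unit beyond all 15 other samples, none of the 15 member probe sets was outside in the Lin-Sca-1+cKit- sample. Over all genes, 123 were above and 100 below of 18193. In the endothelial identity list 0 of 44 genes were above. In the mature blood list 1 of 14 was, the T cell gene Cd4, with 3261 against a highest other value of 303. In the mesenchymal stromal list 1 of 30 was, Thy1, which T cells also express, with 10452 against at most 3094. Their part in the Cdh5 and Sox18 values was not tested.

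Counted by probe set, 6 of the 9 tested members passed the F test over the 5 populations, against 17.1% of all 28949 tested probe sets. In stem-enriched cells 5 were higher than in total marrow, where 7.15% of all tested probe sets were. Further, 5 were higher than in Lin-Sca-1-cKit- cells (3.67% of all tested), 2 than in lineage-depleted marrow (0.781%) and 1 than in Lin-Sca-1-cKit+ cells (1.48%). In Lin-Sca-1-cKit+ cells 4 were higher than in Lin-Sca-1-cKit- cells (4.94%), 5 than in total marrow (8.45%) and 1 than in lineage-depleted marrow (0.0795%). In Lin-Sca-1-cKit- cells 1 was lower than in lineage-depleted marrow (0.819%), and 0 passed limma's test against total marrow in either direction (0.66%), with 0 at an unadjusted p under 0.05. In lineage-depleted marrow 1 was higher than in total marrow (2%). At least 2 of the calls in each of the larger counts come from Egfl7 alone, and the filter favours members that are high somewhere, so the counts describe and are not support. The comparisons share samples.

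**Figure D3:**
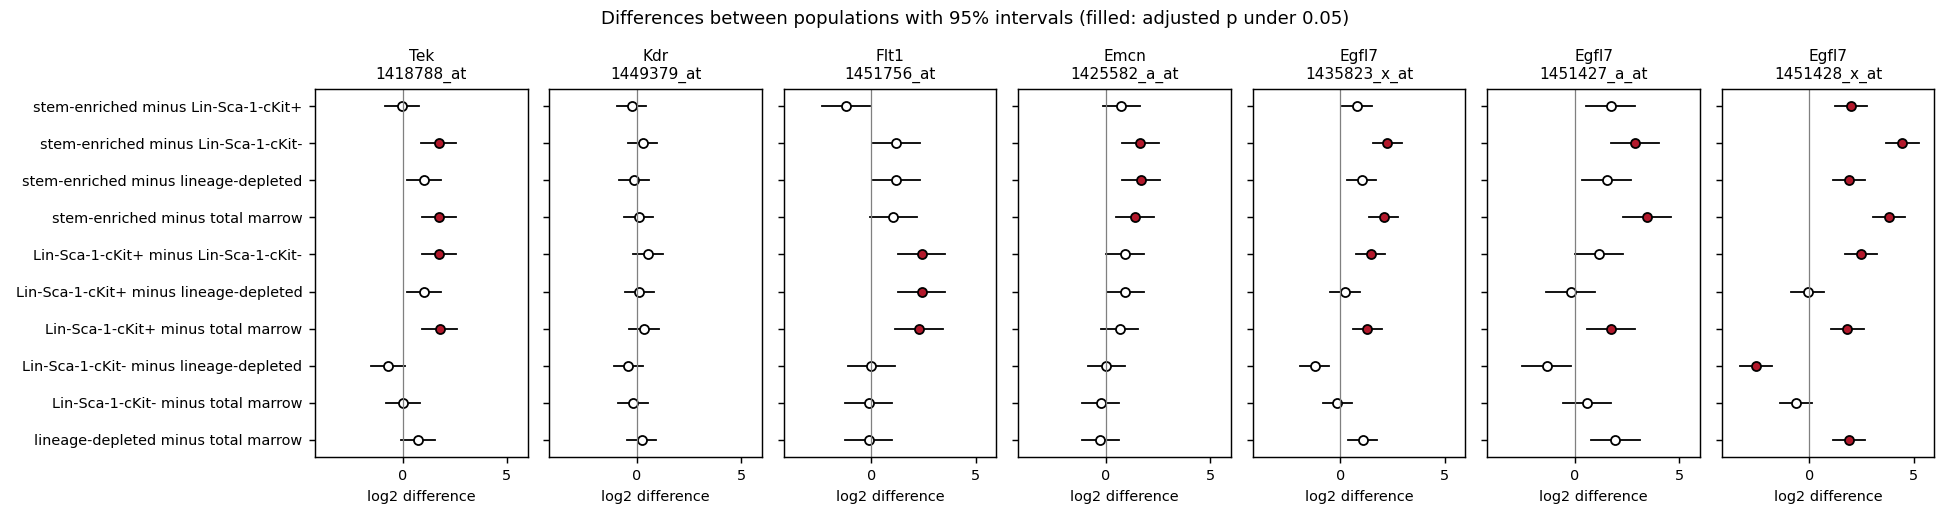
Log2 differences (points) with 95% intervals (lines) for the 6 probe sets called by the F test and for Kdr in the 10 comparisons, first-named population minus the second, filled where the adjusted p was under 0.05. The points of Tek and Egfl7 are to the right of 0 for both cKit-positive sorted populations against Lin-Sca-1-cKit- cells and total marrow. The Egfl7 1451427_a_at interval for Lin-Sca-1-cKit+ minus Lin-Sca-1-cKit- cells reaches just below 0 (-0.010 to 2.326), and every Kdr interval crosses 0.

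Among 23 ligands, co-receptors and signalling partners of the Tie and VEGF receptors, 17 were tested. In stem-enriched cells against total marrow 2 were higher and 1 lower, with a median log2 difference of 0.07, against 0.13 over all genes (8.45% of genes higher, 8.22% lower). Angpt1, which encodes the activating ligand of Tek, had the lowest p. Its signal was 16932, 20346 and 26919 in stem-enriched cells, 8095, 11649 and 11703 in Lin-Sca-1-cKit+ cells, 2374, 2447 and 3042 in Lin-Sca-1-cKit- cells, 1968 in the Lin-Sca-1+cKit- sample, 4958, 7909 and 10108 in lineage-depleted marrow and 2642, 2971 and 3279 in total marrow. Stem-enriched samples were all above the others. The difference from total marrow was 2.83 ± 0.28 (SE, adjusted p = 1.90e-06), that from Lin-Sca-1-cKit- cells 3.01 ± 0.28 (1.17e-06) and that from lineage-depleted marrow 1.52 ± 0.28 (0.0046). Lin-Sca-1-cKit+ cells were higher than Lin-Sca-1-cKit- cells by 1.99 ± 0.28 (9.07e-05). By sample values, Angpt1 and Tek signals were both higher in stem-enriched and Lin-Sca-1-cKit+ cells than in Lin-Sca-1-cKit- cells and total marrow. The Tek differences were partly required by the filter, and some of their calls were lost within a chip lot or with chip lot as a block. Plcg1, a phospholipase downstream of VEGF receptors, was higher than in total marrow (1.00 ± 0.25, adjusted p = 0.0103), and Grb2, an adaptor of receptor tyrosine kinases, was lower (-1.06 ± 0.23, adjusted p = 0.00587). For Nrp2, a VEGF co-receptor, the difference was -0.09 ± 0.56 (adjusted p = 0.943).

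Of 44 other genes of endothelial identity, 34 were tested. In stem-enriched cells 11 were higher and 2 lower than in total marrow (median log2 difference 0.51), and 11 were higher and 1 lower than in Lin-Sca-1-cKit- cells (median 0.29, against 0.10 over all genes, of which 4.31% were higher and 5.49% lower). The genes with the lowest p were Adgrl4, an adhesion G protein-coupled receptor, Cd34, Procr and Ets1. Cd34, a sialomucin, and Procr, the protein C receptor, are also on the list of stem cell associated genes. So are Esam, Robo4, Erg, Sox17, Gata2, Tal1 and Lmo2, so the 2 lists are not separate measures. Of the stem cell associated genes, 17 of 24 tested were higher and 2 lower than in total marrow (median 1.54). Adgrl4 had 9826, 16275 and 21109 in stem-enriched cells and 773, 1319 and 1386 in total marrow, a difference of 3.74 ± 0.28 (adjusted p = 2.82e-07). Cd34 differed by 3.96 ± 0.29 (2.64e-07) and Procr, at the floor in all 3 total marrow samples, by at least 3.25 (0.000145). Ets1, a transcription factor that binds the motif searched above, ran the other way: 1076, 1156 and 1252 in stem-enriched cells and 4766, 7058 and 8925 in total marrow (-2.53 ± 0.24, adjusted p = 2.79e-06).

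Next to these, 5 widely used vessel markers of the same list are given, chosen after their values were seen and outside the naming rule. They do not stand for the list, of which 11 of 34 tested genes were higher and 2 lower in stem-enriched cells than in total marrow. Pecam1 (CD31) had 172, 384 and 761 in stem-enriched cells and 439, 470 and 503 in total marrow (-0.35 ± 0.43, adjusted p = 0.658). Cldn5, a tight junction claudin, had 256, 387 and 723 in stem-enriched cells and 208, 466 and 717 in total marrow (0.02 ± 0.59, adjusted p = 0.992). Stab2 of sinusoidal endothelium had 347, 619 and 848 in stem-enriched cells and 452, 566 and 603 in total marrow (0.08 ± 0.47, adjusted p = 0.94). Vwf, which megakaryocytes also express, had 121, 190 and 211 in stem-enriched cells and 378, 392 and 647 in total marrow (-1.29 ± 0.63, adjusted p = 0.198). None of these 4 passed limma's test between the 2 populations. Plvap did not pass the filter and had 82, 167 and 176 in stem-enriched cells and 43, 188 and 330 in total marrow. Summed signal over the whole list of 44 was 104495 to 145401 in stem-enriched samples, 85546 to 95099 in Lin-Sca-1-cKit+, 62513 to 69050 in Lin-Sca-1-cKit-, 77503 to 86193 in lineage-depleted and 65741 to 74038 in total marrow samples. Between 4 and 10 of the 44 genes were under the floor in a sample. The part of vessel cells in the members' values was not tested.

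Of 25 junction and adhesion genes on the chips, 18 were tested. In stem-enriched cells 0 were higher and 1 lower than in total marrow (median -0.31), and 0 were higher and 3 lower than in Lin-Sca-1-cKit- cells (median -0.09). Over all genes 8.22% were lower in the first comparison and 5.49% in the second, so the 1 lower gene is no more than that share. Vcl, which encodes vinculin of cell adhesions, had 2952, 3440 and 4294 in stem-enriched cells and 12762, 13886 and 18444 in total marrow, with no overlap (-2.08 ± 0.27, adjusted p = 6.90e-05). Cdh1, which encodes E-cadherin, had 192, 248 and 275 in stem-enriched cells and 1071, 1124 and 1279 in Lin-Sca-1-cKit- cells (-2.29 ± 0.38, adjusted p = 0.000849). Ctnna1, the alpha-catenin that links cadherins to actin, was also lower than in Lin-Sca-1-cKit- cells (-0.98 ± 0.26, adjusted p = 0.0249). For Rap1a, a small GTPase of junctions, the difference there was -0.36 ± 0.21 (adjusted p = 0.359).

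**Figure D4:**
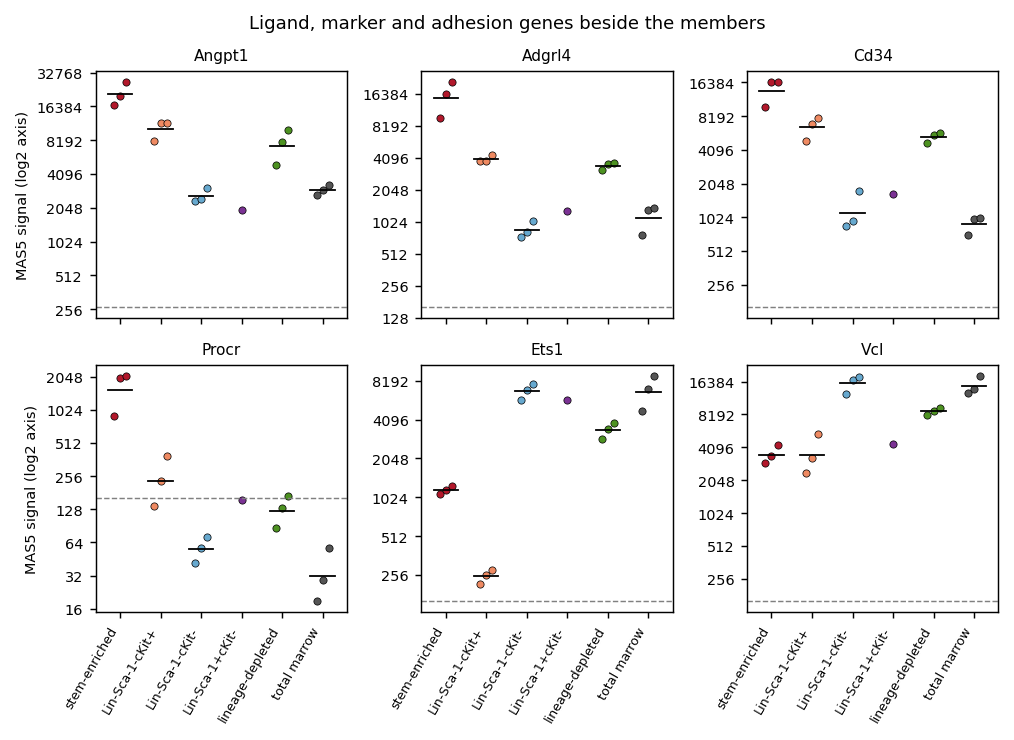
MAS5 signal on a log2 axis for the Tek ligand gene Angpt1, for Adgrl4, Cd34, Procr and Ets1 of the endothelial list and for Vcl of the junction list, 1 point per sample, with geometric means as bars and the floor as a dashed line. The 3 stem-enriched samples are the highest for Angpt1, Adgrl4, Cd34 and Procr and lie below every Lin-Sca-1-cKit- and total marrow sample for Ets1 and Vcl.

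Lists of other cell types are given for the same comparison. Of 13 tested genes of mature blood lineages, 0 were higher and 9 lower in stem-enriched cells than in total marrow (median -2.39). Of 18 tested megakaryocyte and platelet genes, 2 were higher and 4 lower (median -0.48), and of 21 tested mesenchymal stromal genes, 2 were higher and 4 lower (median 0.25). Over all genes 8.45% were higher and 8.22% lower, so the higher members of the last 2 lists are near the share of all genes. Against Lin-Sca-1-cKit- cells, 0 of the 13 mature blood genes were higher and 10 lower (median -2.41), where 4.31% and 5.49% of all genes were. Lin-Sca-1-cKit- samples had 38131 to 59833 for Lyz2 and 46733 to 99466 for S100a9, both myeloid genes, and 943 to 1423 for Cd3e of T cells. Stem-enriched samples had 3410 to 4422, 2502 to 7121 and 164 to 357. Kit, which encodes the sorted receptor cKit, had 4476 to 5050 in stem-enriched and 4272 to 5139 in Lin-Sca-1-cKit+ samples, against 723 to 1276 in Lin-Sca-1-cKit- samples and 702 in the Lin-Sca-1+cKit- sample. Summed signal of the 18 megakaryocyte genes was 34956 to 37674 in stem-enriched samples and 59083 to 73611 in total marrow, and of the 30 stromal genes 57549 to 68998 and 60863 to 72272. The part of these cells in the members' values was not tested.

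Among 13288 other genes, those whose log2 signal ran closest to a member over all 16 samples differed between members. For Tek they were Txnrd3 (r = 0.942), P3h3, Rab12 and Npl, and without the second Lin-Sca-1-cKit+ sample Spns2 (0.951), Cd34 (0.948), Tmem176b and Cdca7l. For Emcn they were Ccdc86 (0.904), Capn3 (0.903), Tmem42 and Paip1, the same 4 with and without that sample. For Egfl7 they were Trim44 (0.941), F2r, Sirt3 and Hoxa9, and without that sample Cibar1 (0.967), Slc7a6, 2410002F23Rik and Cbx1. For Kdr the closest was Ogfod2 (0.889), and without that sample Mamdc4 (0.821), with Ogfod2 at 0.704. For Flt1 on chip type B it was Aplnr (0.782), and without that sample Fam78b (0.832), with Aplnr at 0.746. Between members, Tek and Emcn correlated at 0.74 (0.73 without that sample) and Tek and Egfl7 1451427_a_at at 0.57 (0.87 without it). The samples share populations, scan days and array scaling, so these values describe the 16 samples only.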

How the data were processed

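RNA from 16 samples was hybridised to 2 chip types. Per the submitters' processing notes, the authors computed MAS5 signals (version not given in the sources used here), a linear intensity per probe set. The deposited intensities were already scaled per array and were not rescaled. Deposited instrument records (unit other: text fields) gave chip lot, scan day and a sample description. Control probe sets and 100 probe sets on chip type B that chip type A also holds were left out. Detection calls were not analysed here.

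Signals were floored and filtered as the results state, put on the log2 scale, and fitted by chip type with limma 3.58.1 in R 4.3.3 (population as the only factor, intensity trend, 15 samples, the single sample left out). Comparisons were two-sided, each with p-values of both chip types adjusted jointly (Benjamini-Hochberg) and called under 0.05. Tables were made with pandas 2.3.3 and NumPy 2.4.6, and figures with matplotlib 3.10.9, under Python 3.11.15. The fit was tested on simulated data. The precision is limited by 3 arrays per population and chip type.

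Members, lists and tests were chosen with earlier results of these data known. All members were named with every probe set. A gene's main probe set has the highest mean log2 signal, preferring those without an x or s suffix. From each list up to 4 genes with the lowest F test p were eligible, plus up to 4 far above the range in the single sample, and the likeness rule took 4 genes per tested member; the text names part of these. Of the probe sets on chip type A, 20380 had 1 gene symbol, 691 several and 1555 none, and on chip type B 14565, 241 and 7605, from the platform annotation; several-gene probe sets were not named. Promoter and microRNA sequences are RefSeq's on GRCm38.p6. The alternatives were quantile normalization, other floors and filters, the replicate block, chip lot or scan day as a block, fits within a chip lot, only the compared populations, no intensity trend, a 2-fold minimum, the Gapdh ratio as a covariate and leaving out each sample. Dropping floor and filter together was chosen after seeing the data. Fits on fewer samples kept the filter that was set on all samples.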

Additional observations from a re-analysis of the deposited data

Results flagged for a closer look

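In the single Lin-Sca-1+cKit- sample, which no test uses, Cdh5 1433956_at had a signal of 1070, above all 15 other samples (at most 766). In the same sample Sox18 had a signal of 403, above all 15 others (at most 303). Both lay less than 1 log2 unit above the next sample, the other Cdh5 probe set had rank 6 of 16, and 1 sample allows no test.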

How the results depend on the processing

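No called difference changed direction. Counts of called member probe sets, out of 9 tested, moved as follows, in stem-enriched cells against Lin-Sca-1-cKit+ cells (1 in the fit described), Lin-Sca-1-cKit- cells (5), lineage-depleted marrow (2) and total marrow (5), in Lin-Sca-1-cKit+ cells against Lin-Sca-1-cKit- cells (4), lineage-depleted marrow (1) and total marrow (5), in Lin-Sca-1-cKit- cells against lineage-depleted marrow (1), in lineage-depleted against total marrow (1), and in the F test (6). With a floor at the 50th percentile the F test gave 3, the stem-enriched comparisons other than the first gave 3, 1 and 3, the Lin-Sca-1-cKit+ ones 1, 0 and 3, and the last 2 gave 0 and 0. With a filter at the 75th percentile the same gave 3, then 3, 1 and 3, then 2, 0 and 3, then 2 and 2, since fewer probe sets are tested. Without a floor the first 3 stem-enriched comparisons gave 0, 3 and 0 and Lin-Sca-1-cKit+ against lineage-depleted 0. Dropping floor and filter together gave 0 for stem-enriched against Lin-Sca-1-cKit+ and against lineage-depleted and 0 for lineage-depleted against total marrow. Quantile normalization gave 1 for stem-enriched against lineage-depleted, and put 1 probe set (Cdh5 1433956_at) beyond the 15 others in the single sample, as did leaving out the second Lin-Sca-1-cKit+ sample (1). Chip lot as a block gave 0 and 3 for stem-enriched against lineage-depleted and total marrow, 0 and 1 for Lin-Sca-1-cKit+ against the same and 0 for lineage-depleted against total marrow. Fits within 1 chip lot, with fewer samples, gave 0 and 3 for stem-enriched against the other 2 sorted populations and 1 for Lin-Sca-1-cKit+ against Lin-Sca-1-cKit-. Scan day as a random block gave 0 for stem-enriched and 0 for Lin-Sca-1-cKit+ against lineage-depleted. Fits of only the compared populations gave 0 for stem-enriched against Lin-Sca-1-cKit+, 2, 0 and 2 for the Lin-Sca-1-cKit+ comparisons, and 2 and 2 for the last 2. The Gapdh ratio as a covariate gave 0 for stem-enriched against Lin-Sca-1-cKit+, 0 for Lin-Sca-1-cKit+ against lineage-depleted, and 2 and 3 for the last 2. No filter gave 0 for Lin-Sca-1-cKit+ against lineage-depleted. Where no construction is named, the cause was not tested.

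Leaving out each sample in turn, the F test gave 5 to 6, stem-enriched 0 to 1, 3 to 5, 0 to 3 and 4 to 5, Lin-Sca-1-cKit+ 3 to 5, 0 to 1 and 3 to 5, Lin-Sca-1-cKit- against lineage-depleted 1 to 3 and against total marrow 0 to 0, and lineage-depleted against total marrow 0 to 3. With replicate block, stem-enriched against lineage-depleted gave 1, with Emcn at an adjusted p of 0.0633. The block changed no other call count by over 1.5 times. Of 30 same-number pairs 1 correlated over 0.1, and 9 of 15 samples correlated best with their own number. These values do not settle whether samples of the same number were paired. Kept calls rest on 3 samples a population, and signals under the floor have no order.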
